A study of Mus musculus with 103 samples.

Results

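Liver X receptor (LXR) peaks that lie in intergenic sequence close to genes and share no base with a peak of SREBP1 were examined in mouse macrophages. A peak was taken when it overlapped no SREBP1 peak, its centre lay outside every transcript of the RNA table, and the nearest transcript start was more than 1 kb and at most 50 kb away. Members were thus chosen by the called LXR and SREBP1 peak positions, whose calls rest on tag counts. By this rule 10210 of the 40660 LXR peaks (25.1%) were members. Their position and their lack of SREBP1 overlap are therefore no result. At 1 kb the nearest members were peaks of 14.7 tags by Ctbp2 and 17.3 tags by Rap2c, both 1001 bases from the start, and the nearest peaks left out were those of Aplnr (41.3 tags, 997 bases) and Tcirg1 (104 tags, 999 bases). At 50 kb the members of Tob1 (44 tags, 49994 bases) and Sik1 (28 tags, 49998 bases) were kept, and the peaks of Mis18a (48 tags, 50004 bases) and Ednrb (16 tags, 50006 bases) were not.

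The cells were macrophages drawn to the peritoneum by thioglycollate in male C57BL/6 mice of 6 to 8 weeks and kept without serum overnight before treatment. LXR and SREBP1 chromatin was labelled as coming from cells given GW3965, a synthetic LXR agonist, at 1 µM. RNA came from 6 other libraries without GW3965: untreated cells as the control for 1, 6 and 12 h of KLA (Kdo2-lipid A, a TLR4 agonist, 100 ng/ml), those 3 KLA times, a separate untreated library, and KLA for 24 h. There was 1 peak list per factor and 1 RNA library per condition, so nothing below carries a replicate error or a p-value, and the binding and RNA files analysed here come from different treatments. The labels and headers of the LXR sample differ: its title gives GW3965, its treatment field reads as a control, and the header names 5 h of GW3965 with input chromatin of KLA-treated cells (24 h). The SREBP1 sample is labelled as 18 h of GW3965, but its header names a combined tag directory. Which samples were combined is not known.

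LXRs are nuclear receptors that bind DNA as partners of the retinoid X receptor and are activated by oxysterols and by intermediates of cholesterol synthesis. In macrophages they are known for raising genes of cholesterol efflux and lipoprotein handling, and much of their binding lies at enhancers away from promoters, beside lineage factors such as PU.1. SREBP1, whose gene is itself an LXR target, drives genes of fatty acid synthesis.

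The sequences of the peaks are not printed, because the lists are on mouse build mm9 and the genome at hand is a later build; motifs in the peaks were not analysed here. What can be shown is the sequence before the start of a gene next to a peak, which by the rule holds no member. The 250 bases before the start are given for 3 genes the results return to, 5′ to 3′ on the gene's strand, from RefSeq promoters of build GRCm38.p6. Rsad2 had the tallest member of the interferon response genes, Fcgr4 belonged to a run of 10 members, and Trem2 had the tallest member of the receptor genes. Capitals mark matches, on either strand, to GAAA, any 2 bases and GAAA (interferon regulatory factors), TGANTCA (AP-1) and GAGGAAGT (PU.1).
Rsad2, chr12:26456453-26456702, minus strand: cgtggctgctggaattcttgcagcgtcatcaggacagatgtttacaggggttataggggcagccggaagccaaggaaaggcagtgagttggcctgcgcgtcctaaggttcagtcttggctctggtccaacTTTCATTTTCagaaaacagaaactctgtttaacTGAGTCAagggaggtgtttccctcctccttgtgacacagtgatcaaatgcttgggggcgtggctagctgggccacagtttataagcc
Fcgr4, chr1:171018676-171018925, plus strand: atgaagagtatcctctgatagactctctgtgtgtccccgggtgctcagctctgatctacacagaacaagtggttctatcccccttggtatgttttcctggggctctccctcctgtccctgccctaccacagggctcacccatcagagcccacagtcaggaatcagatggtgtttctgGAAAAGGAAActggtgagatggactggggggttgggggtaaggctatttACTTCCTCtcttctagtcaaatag
Trem2, chr17:48346151-48346400, plus strand: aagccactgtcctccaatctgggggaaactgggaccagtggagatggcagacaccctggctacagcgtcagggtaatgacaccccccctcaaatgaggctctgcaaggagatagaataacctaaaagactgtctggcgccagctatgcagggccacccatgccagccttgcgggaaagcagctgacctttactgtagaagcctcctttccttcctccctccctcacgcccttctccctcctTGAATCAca
Of 32851 RefSeq windows of 250 bases, 2.98% held the first motif, 6.75% the AP-1 motif and 2.44% the PU.1 motif. Each printed window was required to hold the motifs marked in it, so these matches were selected and are no result. A match is a run of letters and not a bound site. A comparison of motif shares between gene groups was void, since 3862 of the 5018 genes nearest to members (77.0%) matched a RefSeq window by gene ID, below the 80% required.

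The members were middling peaks with a long upper tail. Their median was 28.0 LXR tags (scaled to 10000000 tags per library), with quartiles of 20.0 and 48.0 and a range of 9.3 to 678.6. The median was the same in LXR peaks inside genes (28.0) and in those over 50 kb from a start (28.0), lower in promoter peaks (24.0) and higher in LXR peaks shared with SREBP1 (36.0). At least 100 tags were reached by 676 members (6.62%), beside 5.60% of promoter peaks, 5.92% of peaks inside genes, 7.01% of far intergenic peaks and 12.6% of shared peaks. The counts behind these values are small: 4826 members (47.3%) rested on at most 20 sequenced tags, and 158 members passed 200 normalised tags. Intervals on tag counts and on RNA reads are 95% and cover counting error only.

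**Figure D1:**
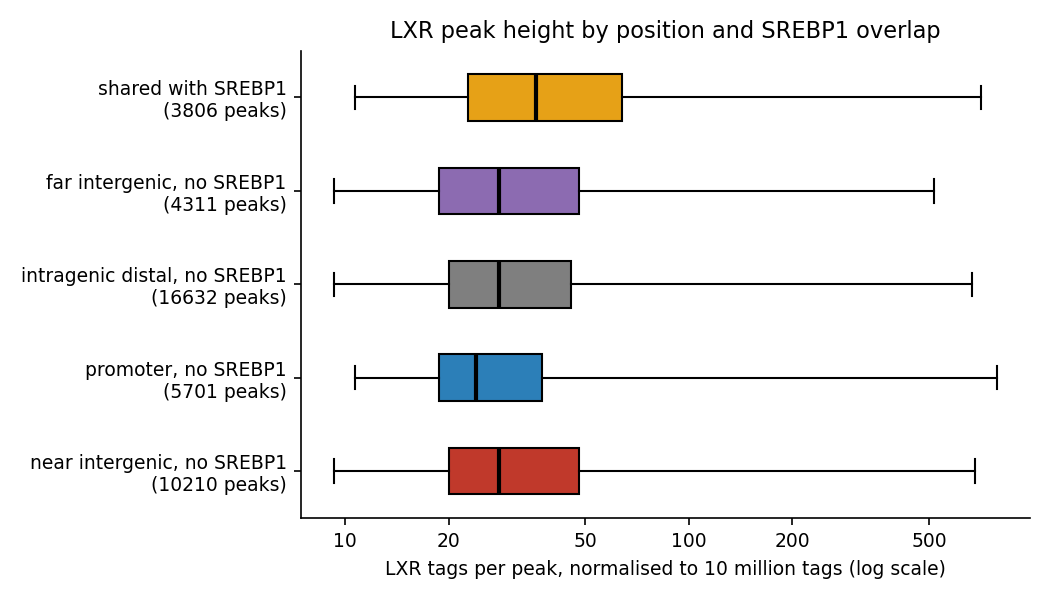
LXR tags per peak (log axis, normalised to 10000000 tags) in the 5 classes of LXR peak; boxes span the quartiles, the line is the median and whiskers reach the lowest and highest peak. The 10210 near intergenic peaks without SREBP1 have a median of 28.0, like the peaks inside genes and the far intergenic peaks, and below the 36.0 of peaks shared with SREBP1.

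The 12 tallest members lay near genes of lipid export, lipoprotein lipolysis and early signalling, and near poorly annotated transcripts. The tallest had 678.6 tags (621 to 740) at 1.284 kb upstream of Junb, which encodes an AP-1 subunit (chr8:87503839-87504023, mm9), and ranked 27 among all LXR peaks. A pair of members lay past the end of Lpl, the gene of lipoprotein lipase, at 34.2 kb (578.6 tags, chr8:71438541-71438725) and 37.9 kb (529.2 tags, chr8:71442302-71442486) from its start. Abcg1, a cholesterol and phospholipid exporter of macrophages, had a member of 538.6 tags at 17.9 kb upstream (chr17:31176619-31176803). Another pair, of 531.9 and 517.2 tags and 527 bases apart, had the transcript 4930522O17Rik as its nearest start and lay 58.3 and 57.8 kb upstream of Abca1, the exporter that loads apolipoprotein A-I (chr4:53231019-53231203 and chr4:53230492-53230676). The remaining 6 were nearest to 4833417C18Rik (601.2 tags), Gm7244 (581.2), Mir7056 (553.2), 1600014C23Rik (483.9), Aldh3b1 (478.6) and Fbxo32 (465.3, a ubiquitin ligase gene of muscle wasting). The RNA of 4930522O17Rik, 1600014C23Rik and Mir7056 was listed at 0 in all 6 libraries, so the nearest start was often not that of a gene with measured RNA.

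Around Abca1, Abcg1 and Lpl the members stood beside other LXR peaks. Within 100 kb of the Abca1 start there were 31 LXR peaks, of which 12 were members. The tallest of all 31, with 607.9 tags at 68.0 kb upstream, was shared with SREBP1, and the promoter carried peaks of 355.9 and 178.6 tags. The pair upstream of Abca1 was itself 330 and 197 bases from an SREBP1 peak centre, without overlap. Abcg1 had 18 LXR peaks within 100 kb and no promoter peak by the 1 kb rule. A peak of 499.9 tags inside the gene lay just past that limit, at 1.21 kb from the start and 466 bases from an SREBP1 peak. Others of 386.6 and 359.9 tags lay further inside. The 7 members of Abcg1 lay between 17.0 and 38.0 kb upstream, and 3 of them, 17.0 to 19.1 kb upstream, had 181.3, 538.6 and 378.6 tags. All 7 were at least 17704 bases from an SREBP1 peak. Lpl had 12 LXR peaks, with 28.0 and 34.7 tags in its promoter peaks against 578.6 and 529.2 in the downstream pair. At Fos, an immediate early AP-1 gene, the order was the opposite: the promoter peak had 531.9 tags and the 11 members nearest to Fos had at most 78.7.

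**Figure D2:**
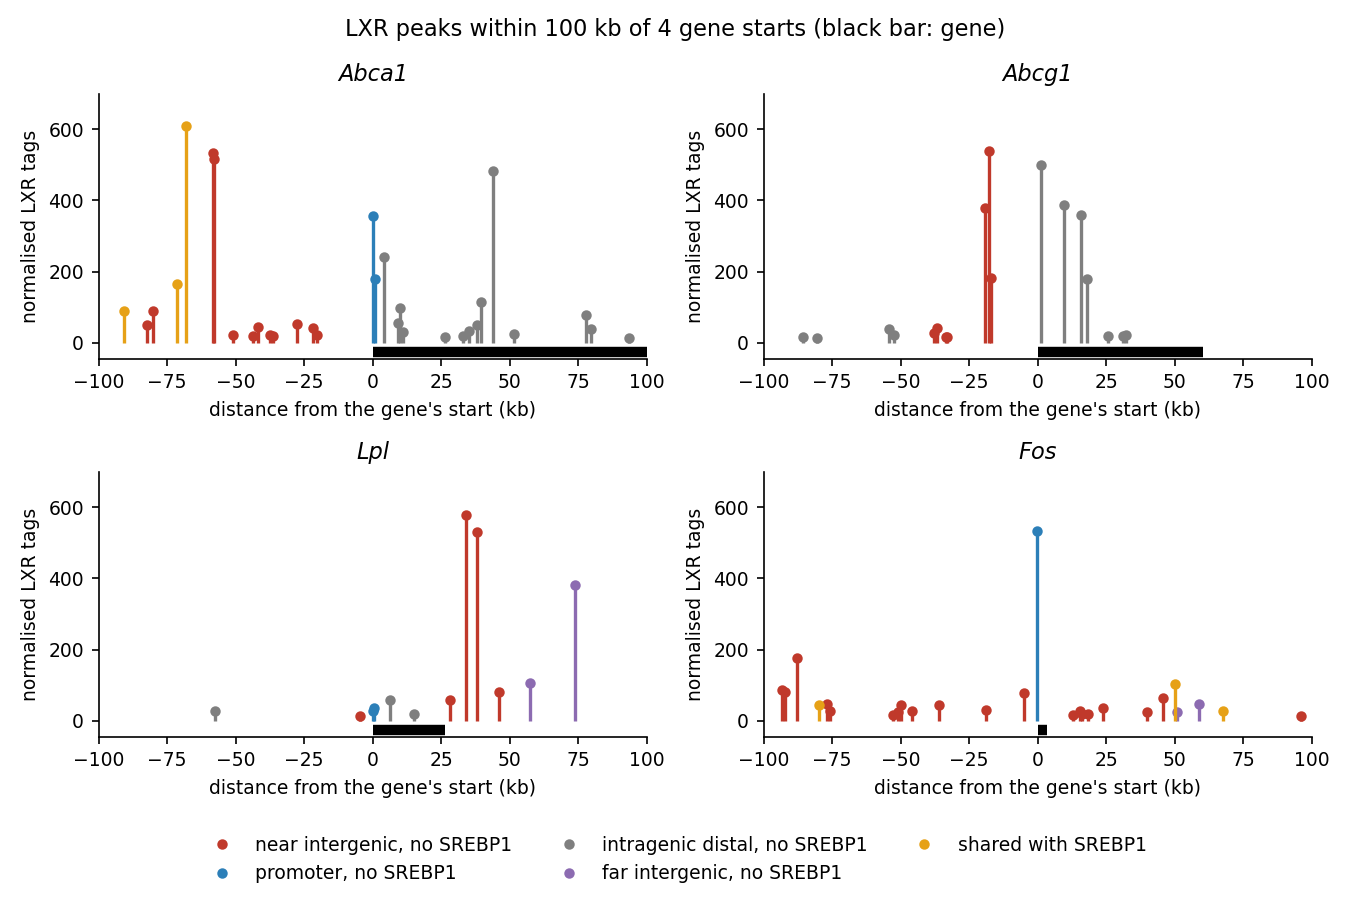
Normalised LXR tags of every LXR peak within 100 kb of the starts of Abca1, Abcg1, Lpl and Fos, by distance from the start in kb and coloured by class; the black bar is the gene, read left to right. At Abcg1 and Lpl the tallest peaks (538.6 and 578.6 tags) are near intergenic peaks without SREBP1, at Abca1 the tallest (607.9) is shared with SREBP1, and at Fos the tallest (531.9) is at the promoter.

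The members thinned out with distance from the start while their median height stayed level. Their median distance was 14.4 kb (quartiles 6.23 and 27.1 kb). Intergenic sequence at each distance was measured on a grid of 100 bases, so that the number of members could be set against the sequence available, including any part of the assembly in which reads cannot be placed. There were 32.0 members per Mb at 1 to 2 kb, 24.0 at 2 to 5 kb, 18.6 at 10 to 20 kb and 12.9 at 40 to 50 kb. Where the nearest gene was expressed (RPKM, a read count adjusted for transcript length and library depth, of at least 1 in 2 of the 6 libraries) the density went from 64.1 to 24.1 per Mb over the same range, and where it was not, from 11.9 to 7.14. The median tag count stayed between 26.7 and 29.3 in all 7 distance bins. Upstream of the start lay 7671 members (75.1%) and 70.4% of the available sequence; at 1 to 2 kb the density was 34.1 per Mb upstream and 14.7 past the gene's end, and at 40 to 50 kb it was 12.4 and 13.6.

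**Figure D3:**
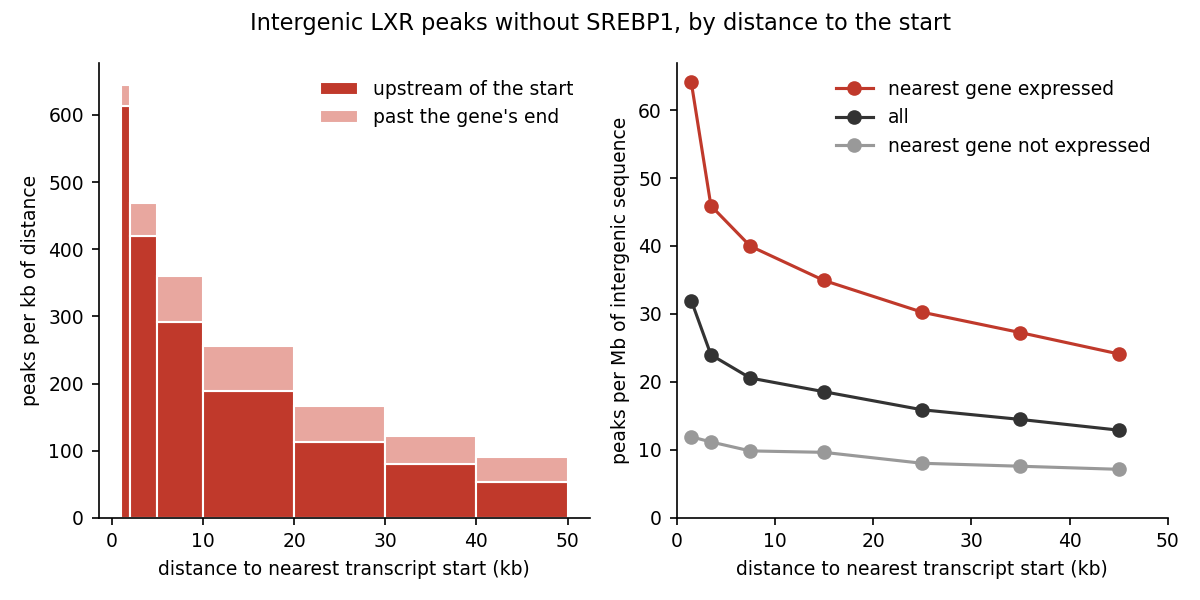
Left, members per kb of distance to the nearest start, split into those upstream of the start and those past the gene's end; right, members per Mb of available intergenic sequence by distance, for all members and split by whether the nearest gene was expressed. Density is highest at 1 to 2 kb (32.0 per Mb for all, 64.1 by expressed genes) and lowest at 40 to 50 kb (12.9 and 24.1).

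Like LXR peaks as a whole, most members had another LXR peak close by. Another LXR peak of any class lay within 10 kb of 7686 members (75.3%), beside 71.8% of all LXR peaks. The share was 72.9% for peaks inside genes, 66.1% for promoter peaks, 63.0% for far intergenic peaks and 76.1% for peaks shared with SREBP1. Members with such a neighbour had a median of 30.7 tags and the 2524 without one had 24.0. Linked wherever they lay within 10 kb of each other, the members formed 6173 groups, of which 3899 held a single member and 199 held 5 or more, with 1192 members (11.7%) in these 199. The run at Ndst1 and Rps14 had 13 members over 55535 bases. Those at Ier5, an immediate early gene, and at Irf2bp2, a transcriptional corepressor gene, had 12 each. The 10 members between 4930522O17Rik and Abca1 summed to 1291.8 tags, the highest sum of these runs, and the 10 at Fcgr2b and Fcgr4, genes of an inhibitory and an activating IgG receptor, to 370.6 tags with no member above 65.3. Neighbouring peaks share the library and the local chromatin and are not independent measurements.

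By gene, Irf2bp2 was the nearest to most members (18, of at most 124 tags, 1.29 to 45.3 kb away). Others with many members were the transcripts Gm19510 (15) and 5830428M24Rik (13), and with 12 each Ier5, Bach1 (a heme-binding repressor of oxidative stress genes), 4933433H22Rik, 5031425F14Rik and Ggta1, and A130077B15Rik with 11. All 12 members of Ier5 lay past its end and all 12 of Ggta1 lay upstream. Of the 5018 genes with a member, 2653 had 1 and 393 had 5 or more. LXR peaks of other classes were also nearest to many of these genes: 2310 (46.0%) had one inside a gene, 1664 (33.2%) at a promoter and 1425 (28.4%) shared with SREBP1, and 1398 (27.9%) had no other LXR peak.

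SREBP1 peaks, excluded by overlap, lay close to a minority of members. The median distance from a member to the nearest SREBP1 peak was 15.7 kb, beside 18.2 kb for peaks inside genes, 5.18 kb for promoter peaks and 47.0 kb for far intergenic peaks. Within 1 kb of an SREBP1 peak lay 942 members (9.23%), beside 8.68% of peaks inside genes, 33.3% of promoter peaks and 6.03% of far intergenic peaks. More than 50 kb away were 1958 members (19.2%), beside 24.3%, 17.0% and 48.3%. The tag counts of members went down with this distance. Their median was 34.7 within 1 kb and 30.7, 28.0 and 26.0 at 1 to 10, 10 to 50 and over 50 kb. In the same order 10.9%, 8.19%, 5.51% and 4.55% of members had 100 tags or more. The members closest to an SREBP1 peak without sharing a base were 189 bases from its centre, at Plec (25.3 tags), Tmem154 (66.7) and Tec (86.7). The SREBP1 list came from chromatin with 1.75% of tags in peaks, against 17.85% for LXR, per the file headers, so a place without an SREBP1 peak is one where none was called.

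RNA was measured at 2205187 to 2674826 reads per library, recovered as whole reads from the RPKM values. Of 24014 genes, 10605 were expressed by the rule above. The summed RPKM of 5 macrophage markers was 6067 to 11173, that of 4 neutrophil markers 39.6 to 118 (Mpo at 0 in all libraries), of 4 dendritic cell markers 1.23 to 101, of 6 lymphocyte markers 3.93 to 6.92 and of 6 fibroblast or mesothelium markers 97.6 to 182. The chemokine gene Ccl22 alone gave 100.4 of the dendritic cell sum of 100.9 after 6 h of KLA. In the untreated library of the 1 to 12 h series it gave 1.00 of 1.23. Of the 6 mast cell or eosinophil markers, which summed to 0.361 to 0.832, Mcpt4, Epx and Prg2 were at 0. The part of other cells in the results below was not tested, and in bulk RNA fewer cells of a type and less RNA per cell cannot be told apart.

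Members were denser beside expressed genes, and denser with expression. Their nearest gene was expressed for 6941 of them (68.0%), and 3231 of the 5018 nearest genes (64.4%) were expressed. Per Mb of intergenic sequence within reach of the rule there were 34.7 members by expressed genes and 8.98 by the others, and 18.1 by all genes. Across the expressed genes the density was 23.5 per Mb where the mean RPKM was under 5, 35.1 from 5 to 20, 42.7 from 20 to 100 and 70.0 at 100 or more. Members of at least 100 tags followed the same order, from 1.21 to 7.23 per Mb.

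Among the gene groups, lysosomal genes had the most members for their sequence. The lists were chosen with earlier results of these data known, and their values stand beside the 34.7 per Mb of all expressed genes. Of all 10605 expressed genes, 3231 (30.5%) had a member. Of the 22 lysosome and cathepsin genes 17 had a member, in all 60 members or 142 per Mb, with a median of 61.4 tags and 15 members of at least 100. The tallest were at Ctsd, the gene of cathepsin D (309.3 tags, 10.3 kb upstream), Gpnmb, a glycoprotein of lipid-laden macrophages (274.6, 3.61 kb upstream), and Psap, the precursor of the saposins (258.6, 16.5 kb upstream). These are also among the most abundant RNAs: Ctsd stood at 11594 RPKM and Psap at 8929 RPKM in the untreated library of the 1 to 12 h series. In the band of mean RPKM of 100 or more, all genes together had 70.0 members per Mb.

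Transcription factor and receptor genes came next. Of 37 lineage and signal-dependent transcription factor genes, 30 had a member (123 members, 74.2 per Mb, median 30.7 tags), the tallest at Junb, at Runx1, a regulator of blood cell lineages (254.6 tags, 35.7 kb upstream), and at Egr2, an immediate early zinc finger gene (202.6, 47.8 kb upstream). Of 40 surface receptor and phagocytosis genes, 29 had one (86 members, 72.4 per Mb, median 36.7). Trem2, a lipid-sensing receptor, had a single member, of 343.9 tags at 9.44 kb upstream (chr17:48476196-48476380, mm9). Tlr4, the receptor that KLA engages, had 5, the tallest of 274.6 tags at 15.7 kb from the start and past the gene's end. Cd300lb, an activating receptor of myeloid cells, had 2, the taller of 245.3 tags.

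Inflammatory genes had 88 members by 30 of 48 genes (65.3 per Mb, median 31.4 tags). The tallest were at Il12a, a subunit of interleukin-12 (323.9 tags, 24.0 kb upstream), at Tnfaip3, the ubiquitin-editing inhibitor of NF-κB (245.3, 15.5 kb from the start, past the end), and at the monocyte chemoattractant Ccl2 (217.3, 20.3 kb upstream). Interferon response genes lay near the density of all expressed genes, with 20 members by 14 of 34 genes, 32.0 per Mb, and a median of 22.7 tags. Their share of genes with a member, 41.2%, was above the 30.5% of all expressed genes. Their tallest were at Rsad2 (161.3 tags, 3.90 kb upstream), an antiviral enzyme, Slfn1 (105.3) and Irf7 (42.7), the factor that amplifies type I interferon.

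Lipid genes divided by pathway. The LXR target and cholesterol efflux list had 39 members by 13 of 25 genes (59.8 per Mb, median 41.3 tags), and the list of fatty acid uptake, storage and oxidation 42 by 14 of 24 (58.2 per Mb, median 39.4). SREBP pathway and fatty acid synthesis genes had 24 members by 11 of 32 genes, 24.0 per Mb, the lowest of the 8 lists. Their share of genes with a member, 34.4%, was not below the 30.5% of all expressed genes. The sequence counted for this list includes 87.1 kb by Hmgcs1, which is placed on 13_random and had no read. Members of this list lay at the desaturase genes Scd1 (133.3 tags, 8.66 kb upstream) and Scd2 (128, 29.3 kb upstream). Peaks shared with SREBP1 are outside the rule, so this count does not cover them. In the storage list the tallest were at Plin2, the coat protein of lipid droplets (200 tags, 1.94 kb upstream), Hilpda, an inhibitor of lipid droplet lipolysis (110.6, 1.32 kb upstream), and the fatty acid carrier Fabp5 (104, past the end).

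All 39 members of the LXR target list can be given by gene. Besides the 7 of Abcg1, 6 of Abca1 and 5 of Lpl, there were 4 at Arl4c, a small GTPase gene (24.0 to 49.3 tags, 40.7 to 49.4 kb past the start). Pltp, the phospholipid transfer protein, had 2 upstream members of 409.3 and 269.3 tags. Cd5l, a secreted protein of tissue macrophages, had 3, of 237.3, 88.0 and 34.7 tags. Nr1h3, which encodes LXRα, had 1 of 145.3 tags at 1.88 kb upstream, 260 bases from an SREBP1 peak. Weaker members lay at Smpdl3a (3, of 52.0, 29.3 and 20.0 tags), Ncoa1 (3, of 17.3 to 28.0), Ccr7 (41.3 and 18.7), Cyp27a1 (46.7), Mylip (29.3) and Apoe (28.0). Mylip, the ligase that degrades the LDL receptor, had its tall peak of 627.9 tags outside the class, and Mertk, an efferocytosis receptor with 15 LXR peaks within 100 kb, had no member there.

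**Figure D4:**
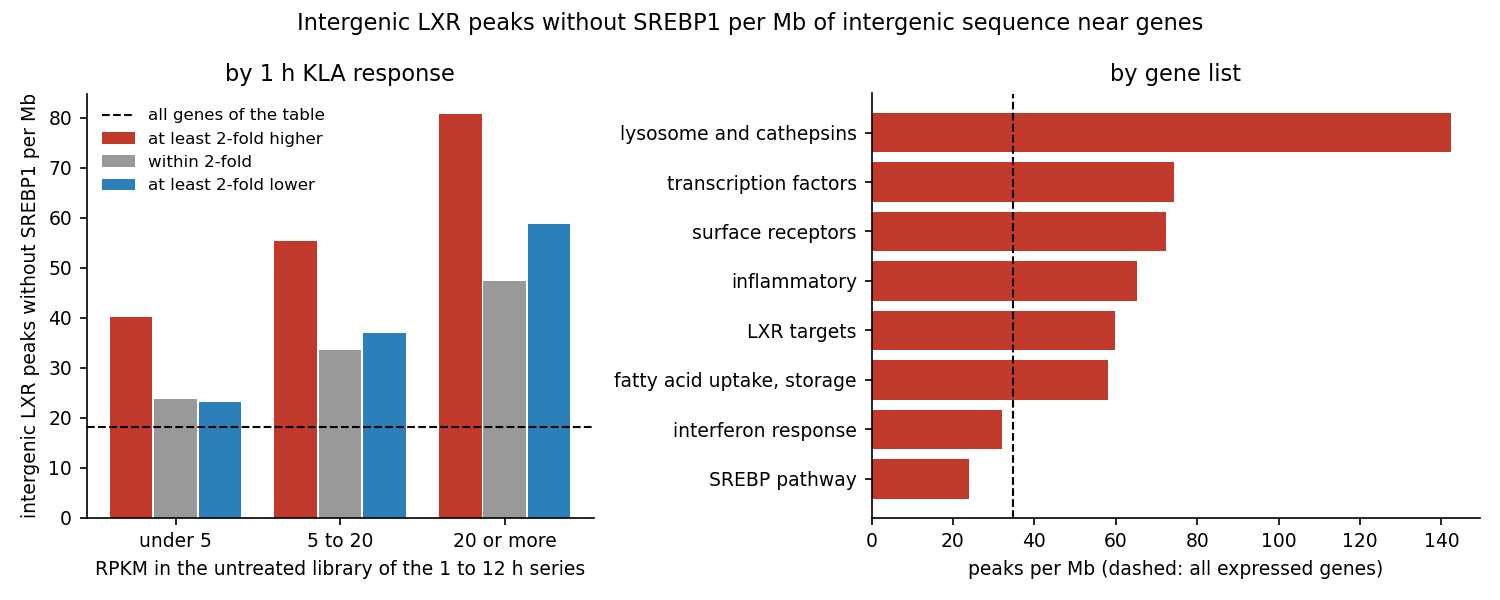
Members per Mb of intergenic sequence near genes. Left, expressed genes by their RPKM in the untreated library and by whether RNA was at least 2-fold higher, within 2-fold or at least 2-fold lower after 1 h of KLA (dashed line, 18.1 per Mb for all genes of the table); right, the 8 gene lists (dashed line, 34.7 per Mb for all expressed genes). Genes higher at 1 h stand above the others in each of the 3 bands, and the lysosome list is highest at 142 per Mb.

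Genes next to members were more often past 2-fold after KLA than expressed genes as a whole, other than downward at 1 h. Changes were taken as log2 ratios of RPKM + 1, which understate those of weakly expressed genes. Of the 3231 expressed nearest genes, 217 (6.72%) were past 2-fold upward at 1 h and 110 (3.40%) downward, where the shares of all 10605 expressed genes were 3.65% and 4.09%. At 6 h 449 (13.9%) were higher and 814 (25.2%) lower, where all genes gave 9.35% and 22.4%. At 12 h 409 (12.7%) were higher and 632 (19.6%) lower, beside 8.88% and 16.3%, and at 24 h 448 (13.9%) were higher and 490 (15.2%) lower, beside 9.98% and 10.6%. The 1, 6 and 12 h comparisons share their untreated library. The median log2 ratio of all expressed genes was -0.16, -0.46, -0.32 and -0.09 at the 4 times. Counted relative to these medians, 637 nearest genes (19.7%) were higher and 421 (13.0%) lower at 6 h, with 14.2% and 9.83% of all genes, so the excess of lower over higher genes at 6 h, and likewise at 12 h (547 higher, 388 lower) and 24 h (487 and 437), depended on the scaling. At 12 h these were 16.9% and 12.0% of the nearest genes, beside 12.2% and 8.73% of all genes. At 24 h they were 15.1% and 13.5%, beside 11.0% and 9.14%. At 1 h the count relative to the median was 259 higher (8.02%) and 76 lower (2.35%), beside 4.33% and 2.49% of all genes.

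The share of genes higher at 1 h went up with the number of members. Among expressed genes, 2.31% of those without a member were at least 2-fold higher, 4.85% of those with 1, 6.69% with 2, 8.95% with 3 or 4 and 12.1% with 5 or more (35 of 289 genes). The share that was lower at 1 h showed no such order (4.39%, 3.59%, 2.37%, 3.61% and 4.50%). At 24 h the lower share went from 8.57% without a member to 22.8% with 5 or more, and the higher share from 8.27% to 16.6%. Expression moved along with the count: the median RPKM in the untreated library was 7.43 without a member and 18.5 with 5 or more. The height of the strongest member went the same way, with 4.70% higher at 1 h where it had at most 22.7 tags and 9.16% where it had at least 66.7, and the number of members went with it, from a median of 1 to 3.

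**Figure D5:**
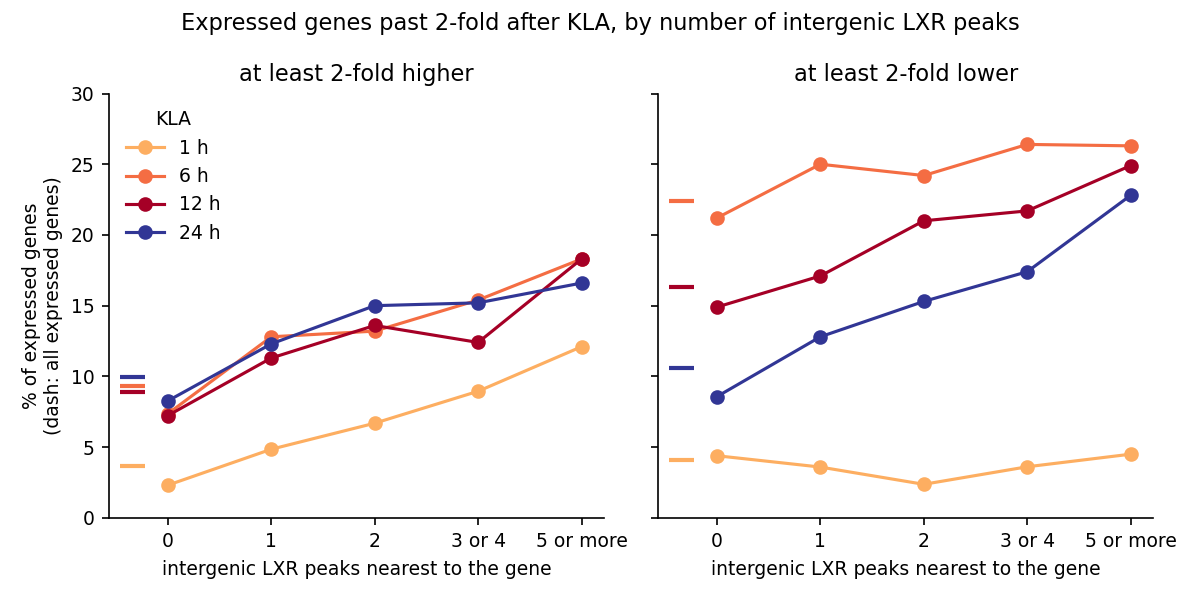
Percent of expressed genes at least 2-fold higher (left) or lower (right) after 1, 6, 12 and 24 h of KLA, by the number of intergenic LXR peaks without SREBP1 nearest to the gene; dashes at the left edge give all expressed genes. At 1 h the higher share goes from 2.31% to 12.1% and the lower share stays between 2.37% and 4.50%.

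Genes with LXR peaks of other classes were set beside these. Expressed genes with some LXR peak but no member were at least 2-fold higher at 1 h in 2.29% of cases, and those without any LXR peak in 2.34%. Genes nearest to far intergenic peaks gave 7.60%, to peaks shared with SREBP1 5.31%, to peaks inside genes 4.42% and to promoter peaks 4.17%. At 6 h the higher shares of these classes, in the same order, were 16.1%, 10.4%, 11.4% and 9.24%, beside 13.9% for members. Lower shares at 6 h were 22.7%, 27.9%, 25.1% and 24.1%, beside 25.2%. Lower shares at 24 h were 16.8%, 16.1%, 14.9% and 10.2%, beside 15.2%. These sets overlap, and no test of their differences was possible. Intergenic room also differed: genes higher at 1 h had a median of 19.7 kb of intergenic sequence within reach and genes within 2-fold 10.5 kb. Per Mb of that sequence there were 54.2 members by the 387 genes higher at 1 h, 33.4 by the 434 lower ones and 33.6 by the rest. Higher genes stood above those within 2-fold in each band of untreated RPKM. There were 40.2 against 23.8 per Mb under 5 RPKM, 55.4 against 33.6 from 5 to 20, and 80.8 against 47.4 at 20 or more. Lower genes had 23.1, 37.0 and 58.8 per Mb in these bands, the last from 46 genes. They too were thus above genes within 2-fold at 5 to 20 and at 20 or more RPKM, but not under 5. At 24 h both directions stood above the rest, with 43.0 per Mb by higher genes, 47.9 by lower genes and 31.3 by genes within 2-fold. In the band of 20 or more these were 63.4, 62.8 and 43.1.

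Single nearest genes were ranked by their log2 ratio of RPKM + 1, while the folds printed from here on are plain ratios of RPKM, which can order weakly expressed genes differently. At 1 h the 4 highest were Cxcl2 (12.99 RPKM untreated, 4198 with KLA), Il1b (6.84 and 2095), Cxcl1 (8.13 and 1622), which encode attractants of neutrophils and interleukin-1β, and Nfkbiz (2.20 and 538), an IκB-type regulator. They had 2, 4, 5 and 3 members, of at most 54.7, 36.0, 168 and 48.0 tags. At 6 h Il1b (4048 RPKM), Ccl5 (21.4 and 7456), Rsad2 (12.7 and 4216) and Mx1 (0.673 and 416) led, and at 12 and 24 h Ms4a4c, Ccl5, Il1b, Cxcl3 and AW112010 did. Ms4a4c, with 3 members of at most 25.3 tags, had no read in the first untreated library and 552 RPKM at 12 h. Of these 10 genes, Cxcl1 and Rsad2 had a member of at least 66.7 tags. Among the 3231 expressed nearest genes, the strongest member reached that height in the top 808.

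By the same ranking, the lowest at 1 h were Gadd45g, a growth arrest gene with 7 members (93.3 and 12.0 RPKM, 7.79-fold lower, 5.34 to 11.7), Usf1 (5.80-fold lower), Ier5l (7.35-fold lower, 2.56 to 28.9, with few reads) and Fbxo32. Fbxo32, with 6 members and one of the 12 tallest, had 36.2 RPKM untreated, 8.17, 1.64 and 5.36 after 1, 6 and 12 h, and 41.0 untreated and 8.03 with KLA at 24 h, below its untreated library at every time. Cxcr4, a chemokine receptor with 3 members of at most 20.0 tags, went from 124 to 2.79 RPKM at 6 h (44.5-fold lower, 25.2 to 86.7). Tcp11l2, Tsc22d3 (a glucocorticoid-induced gene) and 1810011H11Rik followed at 6 h, and Cmbl, Susd3, Mamdc2 and Tcp11l2 were lowest at 12 h. At 24 h Mamdc2, with 6 members, was at 262.7 RPKM untreated and 4.15 with KLA (63.4-fold lower, 45.8 to 90.2), followed on the log2 scale with its pseudocount by Fam198b (55.8-fold lower), the cell cycle inhibitor Cdkn1c (24.1-fold) and Cd300lb (17.7-fold, 14.0 to 22.8).

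RNA of the genes by the tallest members varied in direction. Junb stood at 78.7 RPKM untreated, at 748, 189 and 159 after 1, 6 and 12 h of KLA, and at 38.5 untreated and 99.8 with KLA at 24 h, 9.51-fold higher at 1 h (8.48 to 10.7) and above its control at every time. Its untreated libraries differed by about as much as control and KLA did at 12 h. Abca1 was higher at every time, with 5.79 RPKM untreated, 9.34, 13.2 and 15.9 at 1, 6 and 12 h, and 12.9 and 29.8 in the 24 h pair. Its control libraries differed by about as much as control and KLA did at 6 h. Abcg1 was lower at every time: 46.5 RPKM untreated, 31.3, 17.0 and 15.2 with KLA, and 52.5 and 26.8 in the 24 h pair, 3.05-fold lower at 12 h (2.61 to 3.58). The RNA of the exporters Abca1 and Abcg1 thus stood on opposite sides of the control. Members nearest to Abcg1 had up to 538.6 tags and those nearest to Abca1 at most 52.0. The tall pair further upstream of Abca1 was nearest to 4930522O17Rik. Lpl was at 379 RPKM untreated, 345, 347 and 239 with KLA, and at 516 and 243 in the 24 h pair. Pltp was at 230, 183, 154 and 112 RPKM, and at 108 and 55.5 in the 24 h pair, so that its untreated libraries differed as much as KLA and control did. Aldh3b1 was at 43.1, 40.5, 17.3 and 37.5 RPKM, with 37.4 and 31.4 at 24 h.

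By list, genes with a member moved as follows, beside all expressed genes with their medians of -0.16, -0.46, -0.32 and -0.09 and, at 1, 6, 12 and 24 h, shares of 3.65%, 9.35%, 8.88% and 9.98% higher and 4.09%, 22.4%, 16.3% and 10.6% lower. Of 30 inflammatory genes with a member, the counts at least 2-fold higher were 26, 29, 26 and 24 at 1, 6, 12 and 24 h, and none was 2-fold lower at any time. Of 14 interferon response genes with a member, the counts at the same times were 7, 14, 13 and 14, and none was 2-fold lower. Of 17 lysosomal genes none was higher at any time, and 0, 3, 4 and 5 were lower at the 4 times, with medians of -0.21, -0.73, -0.76 and -0.84. Ctsd was 2.35-fold lower at 24 h (8180 and 3475 RPKM), and Gpnmb 1.89-fold (6376 and 3371). Of 13 expressed LXR targets with a member, 2 were higher and 4 lower at 6 h and at 12 h, and 2 and 2 at 24 h, with medians of -0.57, -0.73 and -0.68. Of 27 receptor genes 3, 5, 9 and 10 were higher and 2, 10, 10 and 10 lower at the 4 times. Trem2 stood at 1106 RPKM untreated, 882, 497 and 335 with KLA, and at 623 and 165 in the 24 h pair (3.78-fold lower, 3.41 to 4.19). Of 29 transcription factor genes 8, 5, 3 and 4 were higher and 1, 7, 6 and 6 lower, with Egr2 higher at 1 h (38.6 and 223 RPKM). Of 12 genes of fatty acid uptake and storage 2, 3, 3 and 4 were higher and 0, 5, 5 and 4 lower. Hilpda was among those higher at 1 h (96.3 and 485 RPKM), Acsl1, an acyl-CoA synthetase, among those higher at 6 h (8.86 and 44.0), and Plin2 (810 and 246) and Fabp5 (585 and 187) among those lower at 6 h. Of 10 SREBP pathway genes 1 was higher at 1 h and none later, and 0, 3, 2 and 2 were lower, with Scd2 lower at 6 h (24.8 and 7.35). These lists were picked for their biology with results in view, and their counts describe them only.

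Among the 10 genes with most members, none was at least 2-fold higher at any KLA time on the log2 scale. Irf2bp2, Bach1 and 5031425F14Rik were past 2-fold downward at 1 or more times. The last had few reads (2.50 RPKM untreated and 0.26 at 6 h). Irf2bp2 was at 22.1 RPKM untreated, 10.6, 6.42 and 13.3 with KLA, and at 33.4 and 21.6 in the 24 h pair. Bach1 was at 19.0, 12.8, 7.70 and 4.60, and at 27.4 and 7.21 at 24 h, 3.81-fold lower (3.08 to 4.73). Ier5 was at 58.5 RPKM untreated and 102 at 1 h, and within 2-fold of its control at every time. Fcgr4, with 8 members and so not among these 10, was at 83.5, 62.4, 122 and 192 RPKM, and at 128 and 248 at 24 h. Gm19510 and 5830428M24Rik had at most 0.24 RPKM in any library.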

How the data were processed

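LXR and SREBP1 peak lists and 1 RNA table were analysed for 8 of 103 labelled samples. The members and lists were chosen with earlier results of these data known. Per the file headers the authors called peaks with HOMER (false discovery rate 0.001, 4-fold over input and over the surrounding 10000 bases, Poisson threshold 1e-04) and deposited a normalised tag count (a signal scaled to 10000000 tags), raw tag counts, fold ratios, p-values, a score and a focus fraction per peak; the last 3 were not used. LXR peaks came from 7501248 tags. The SREBP1 header names a combined tag directory with untreated input. Disuccinimidyl glutarate and formaldehyde cross-linked the chromatin, which was precipitated with several antibodies per factor, per the labels' protocols, which also give 24 h of GW3965 for LXR experiments. Bowtie 0.12.7, STAR, HOMER and mm9 are named without roles in the submitters' processing notes. The authors deposited RPKM for 33022 transcripts; whether strand was used is not given in the sources here, and overlapping genes cannot be told apart.

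Classes, nearest starts and intergenic sequence came from the table's transcripts (Python 3.11.15, pandas 2.3.3, scripts tested on simulated data). Each gene was its transcript of highest mean RPKM. Reads were recovered as RPKM × length × library total, with 99.97% of values whole within 0.01 read. Ratios carry exact binomial intervals on reads and tag counts exact Poisson intervals. Genes were expressed at RPKM of at least 1 in 2 libraries, and log2 ratios used a pseudocount of 1. Named were the 12 tallest members, the 10 genes with most members, the tallest 3 per list and all for LXR targets, the 4 highest and lowest ratios per KLA time with at least 20 reads, the members at each limit and the 3 closest to SREBP1. Some genes that this rule names are not reported here. Alternatives changed 1 choice at a time.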

Additional observations from a re-analysis of the deposited data

How the results depend on the processing

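No paired analysis was possible because each group had 1 library or 1 peak list, and for the same reason no replicate could be left out. The number of members was 6413 with a distance limit of 20 kb, and lay between 8787 and 10477 under the other 5 alternatives. Their median tag count was 28.0 to 32.0. Another LXR peak lay within 5 kb of 56.1% and within 25 kb of 90.7% of members, and within 10 kb of 71.4% when LXR peaks needed 8-fold over input. The nearest gene had RPKM of at least 5 in 2 libraries for 54.7%, and was expressed for 69.2% within 20 kb. The median distance to SREBP1, with alternatives chosen after seeing the data, was 22198 bases to SREBP1 peaks of at least 8-fold over input and 15720 bases from LXR peaks so limited.

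Of 72 alternative counts of nearest genes past 2-fold, 67 were within 1.5 times the reported count. Lower genes at 1 h numbered 47 with a pseudocount of 3 and 66 with the filter at RPKM 5. Lower genes at 12 h numbered 410 with a pseudocount of 3, and relative to the median of all expressed genes lower genes numbered 421 at 6 h and 388 at 12 h. In all 36 alternatives for higher genes the share was above that of all genes tested the same way, as it was in all 9 for lower genes at 6, 12 and 24 h each; for lower genes at 1 h it was above in 2 of 9. Fold counts in single libraries cover no biological spread, and at these depths a transcript of 1 kb without a read could have had 1.12 to 1.36 RPKM. The motif search within members, in either window, was not run.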

Other observations

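The AP-1 genes Fos and Junb were compared after their values were seen. Within 100 kb of the Fos start lay 26 LXR peaks, of which 20 were near intergenic peaks without SREBP1, with 14.7 to 177.3 tags and a median of 28.7, near the 28.0 of all members, and the Fos promoter peak of 531.9 tags was outside the class. Within 100 kb of Junb lay 14 LXR peaks and a single member, of 678.6 tags, which its distance of 1.284 kb kept apart from promoter peaks, and a peak of 646.6 tags shared with SREBP1. Fos RNA was 5.41-fold higher at 1 h (4.13 to 7.19; 13.7 RPKM untreated and 73.9 with KLA) and then below its control, with 4.43 RPKM at 6 h, 4.49 at 12 h, and 10.9 untreated and 4.65 with KLA at 24 h. Junb RNA was above its control at all 4 times.

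By chromosome, the shares of members lay close to those of all LXR peaks. Chromosome 2 had 843 members (8.26%, beside 8.23% of all LXR peaks), chromosome 1 had 801 (7.85% and 7.00%) and chromosome X 170 (1.67% and 1.64%). Chromosome 8, with the Junb and Lpl members, had 441 (4.32% and 4.92%).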
